A study of Drosophila melanogaster with 69 samples.

Results

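The insulin signaling genes described here are the 10 genes Ilp6, Ilp8, ImpL2, InR, chico, Lnk, Pi3K92E, Akt, foxo and Thor, matched by their FlyBase symbols to 10 of the 17807 genes listed for each library. In flies, insulin-like peptides bind the insulin receptor InR, which acts through adaptor proteins and phosphoinositide 3-kinase to activate the kinase Akt. Akt in turn keeps the transcription factor Foxo out of the nucleus, and one of the known Foxo targets, Thor, restrains translation. In the fly testis and ovary this pathway is known to set the division and maintenance of germline stem cells in step with nutrition.

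RNA was measured by bulk RNA-seq of poly(A)-selected RNA from whole testes and ovaries. Wild-type flies were of the strain Oregon R. The chinmoST flies carried, by the labels, the alleles Sod1[X-39] and e[1] over the third-chromosome balancer TM3, itself marked with Sb[1] and Ser[1], under the strain name chinmoST, and the study describes chinmoST as a presumed regulatory mutation, of unknown lesion, that removes the transcription factor Chinmo from the cyst stem cells (CySCs) of the testis and their progeny. Gonads were taken at days 1, 3, 5, 7, 9 and 11 of adult life, although the titles of the day 1 libraries give day 0, and each library pooled 50 to 60 pairs of testes or 20 to 25 pairs of ovaries. The 24 groups of genotype, tissue and day held 36 testis and 33 ovary libraries, 3 in each group but for 2 in the wild-type ovary groups of days 1, 7 and 11. The labels do not say whether libraries came from separate matings or cultures, so p-values measure the spread between these libraries. Strain background and the chinmo allele cannot be told apart, and 7 of the 10 genes lie on chromosome 3, to which the markers and balancer of the genotype label belong.

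Depth was between 32462418 and 181988641 estimated fragments per library, so that 3 fragments corresponded to between 0.0165 and 0.0924 CPM (counts scaled to a common library size). RNA of chinmo itself was present in testes of both genotypes, at 221 to 565 CPM in wild-type and 250 to 489 CPM in chinmoST, and at no more than 11.2 CPM in any ovary library. It therefore did not separate the genotypes. For each library, r is the Pearson correlation, across genes, of the deviation from the tissue mean in log2(CPM + 1) with log2 gene length. In 4 wild-type testis libraries, replicate 1 of days 3, 5, 7 and 9, r was between -0.66 and -0.62, so long genes were low there. In ovaries it was below -0.3 in 5 wild-type and 3 chinmoST libraries, and in testes also in 1 chinmoST library. Wild-type ovary replicate 1 of day 1 also held 31.7 CPM of 8 late spermatid marker genes, against at most 1.42 CPM in any other ovary library. Calls of the 10 genes that changed without these libraries are given with and without them. At days 9 and 11, r was between 0.22 and 0.30 in the 6 chinmoST testis libraries. It was between -0.66 and 0.03 in the 6 wild-type ones, so the trend with gene length separated the genotypes at those days. The genotypes were also separate at day 5, with r at 0.10 to 0.18 in chinmoST and -0.65 to 0.06 in wild-type testes. At day 7 r was 0.16 to 0.33 in chinmoST and -0.64 to -0.005 in wild-type testes.

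In testes, 9 of the 10 genes were higher in chinmoST than in wild-type at days 7, 9 and 11, and Ilp8 was lower at days 9 and 11. At day 11 the rises ranged from 1.70-fold for ImpL2 to 4.67-fold for InR. A gene was called changed at an adjusted p under 0.05 over all genes tested and a fold change of at least 1.5. By this rule 0 of the 10 genes were called at day 1 (5.60% of 14910 genes tested, 2.22% higher and 3.38% lower) and 0 at day 3 (19.1%, 6.59% higher and 12.6% lower). At an unadjusted p under 0.05, 0 and 2 of the genes passed at these days. DESeq2 called 0 and 2, the latter being InR and foxo, and limma on log2(TPM + 1) called 0 and 0. At day 5 foxo was the only one called (27.8%, 12.7% higher and 15.1% lower). At day 7 the call covered 9 genes (50.6%), all higher, a direction called for 27.8% of all genes against 22.8% lower. At day 9 it covered 10 genes (58.3%), with 9 higher (30.3% of all genes) and Ilp8 lower (28.0%). At day 11 it covered 10 genes again (62.1%), with 9 higher (32.1%) and 1 lower (29.9%). The median log2 fold change of the 10 genes at day 11 was 1.51, beside 0.09 over all genes tested.

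**Figure D1:**
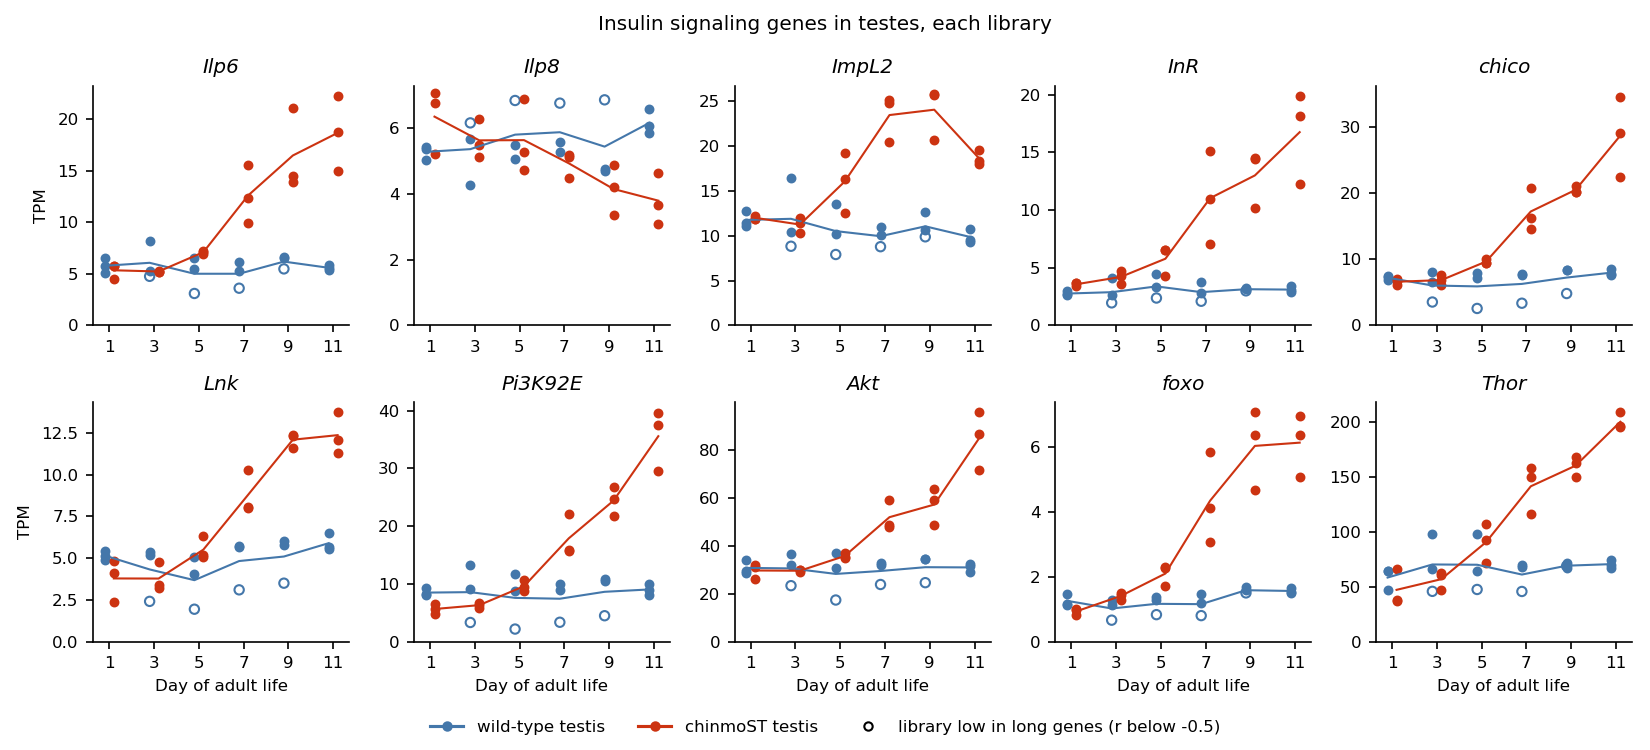
Level of each insulin signaling gene in testes (TPM, transcripts scaled to a common total, linear axis from 0) against day of adult life, with a point for each of the 36 libraries, a line through the group means, and open points for the 4 wild-type libraries with r below -0.5 for gene length. From day 7 onward every chinmoST library lies above every wild-type library for all genes but Ilp8, where the groups overlap.

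Over days 7, 9 and 11 together, the 9 chinmoST libraries did not overlap with the 9 wild-type libraries for any of the 9 risen genes, while for Ilp8 they overlapped. Of all 14910 genes tested in testes, 29.5% lay above in every chinmoST library over the same days and 13.2% lay below in every one. In bulk tissue, fewer cells of a type and less RNA per cell cannot be told apart, and the makeup of these testes changed over the same days. The summed CPM of 5 GSC and spermatogonia markers was 428 to 658 in chinmoST testes at days 9 and 11, against 62.8 to 79.0 in wild-type, and all 5 (aub, zpg, vas, nanos and bam) were called higher at day 11. The 5 CySC markers summed to 302 to 521 CPM against 74.5 to 89.2, with 4 of 5 called higher, and the 5 markers of early and intermediate cyst cells to 1024 to 1663 CPM against 166 to 415, with 3 of 5 higher. The 8 late spermatid markers fell, all 8 being called lower, to 972 to 1424 CPM against 2237 to 2495. At day 1 the same 4 lists lay at 46.1 to 57.7, 63.2 to 66.9, 166 to 238 and 2255 to 2392 CPM in chinmoST testes. The part of these shifts in the rise of the insulin signaling genes was not tested. InR is itself among the study's markers of hub cells and CySCs and was left out of the lists.

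**Figure D2:**
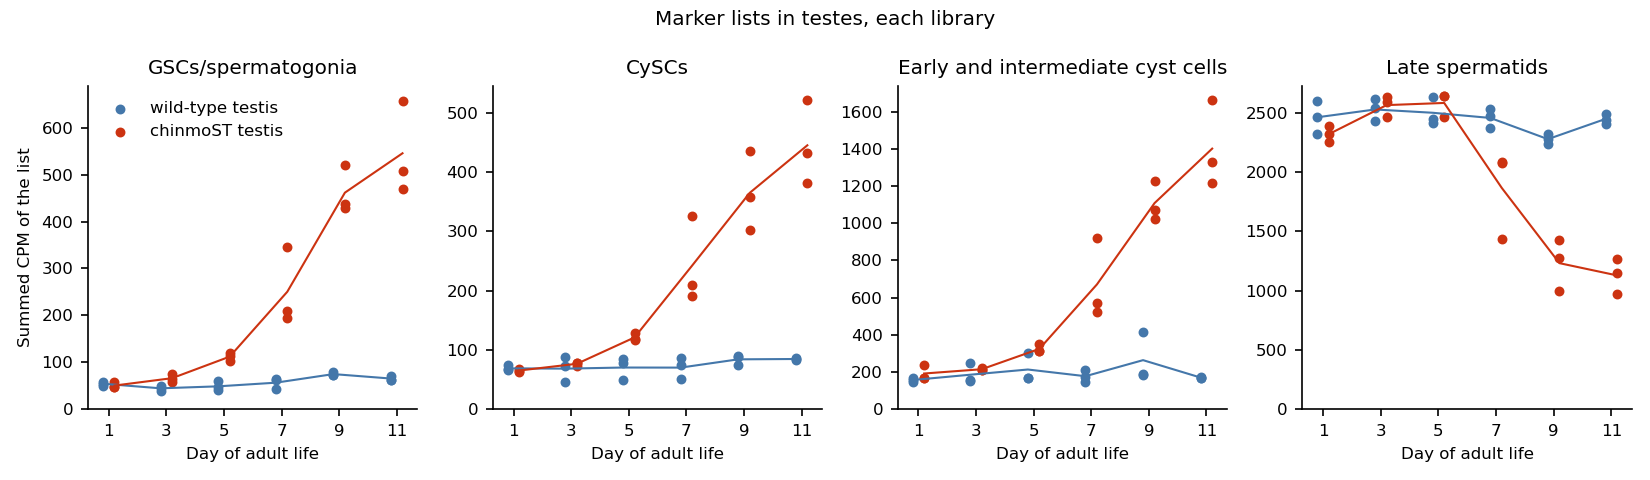
Summed CPM of 4 marker lists in testes (linear axes from 0) against day of adult life, with a point for each library and lines through the group means. In chinmoST testes the lists for GSCs and spermatogonia, CySCs, and early and intermediate cyst cells climb from day 5 to day 11 and the late spermatid list drops after day 5, while the wild-type lists change little, apart from single libraries of the early and intermediate cyst list, the highest at 415 CPM.

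Other sources of RNA were followed with their own lists. The 3 genes of the brain insulin-producing cells, Ilp2, Ilp3 and Ilp5, summed to at most 0.968 CPM in any testis library and 0.0554 CPM in any ovary library, and none of the 3 reached 1 CPM. The 4 fat body markers summed to 96.4 to 133 CPM in chinmoST testes at day 7 and 41.8 to 117 CPM at days 9 and 11, against 32.7 to 63.1 and 33.7 to 60.7 CPM in wild-type. At day 11 none of these 4 was called higher and Lsp2 was called lower. The 2 hemocyte markers summed to 40.4 to 85.9 CPM in chinmoST testes at days 9 and 11 and 25.3 to 42.5 CPM in wild-type, and neither was called at day 11. Both muscle markers, Mp20 and Zasp66, were called higher. The 7 genes of follicle cell secretions, which make eggshell, stayed at 2.94 to 8.37 CPM in wild-type testes and reached 4.04 to 257 CPM in chinmoST testes at days 9 and 11. Their part in the results was not tested.

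Among the ligands, Ilp6 (FBgn0044047) encodes an insulin-like growth factor made mainly by the fat body, and lies on chromosome X from 2331493 to 2334658 on the reverse strand of the BDGP6 (dm6) assembly. At day 11 its level was 5.83, 5.41 and 5.52 TPM in the wild-type testes and 22.2, 15.0 and 18.7 TPM in the chinmoST testes. The lowest chinmoST library was thus above the highest wild-type library. The rise came to 1.66 ± 0.19 as a log2 fold change (standard error, n = 3 against 3, edgeR adjusted p = 1.68e-08). At day 1 the levels were 6.56, 5.04 and 5.74 TPM against 5.76, 5.75 and 4.53 TPM and overlapped, with a log2 fold change of 0.07 ± 0.18.

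Ilp8 (FBgn0036690; 3L from 17029812 to 17032080, reverse strand) encodes a relaxin-like peptide known for delaying metamorphosis after tissue damage and, in adult females, for its presence in follicle cells of mature eggs. It was the only one of the 10 genes called lower in chinmoST testes with all libraries included. At day 11 it measured 5.83, 6.57 and 6.05 TPM in wild-type and 3.07, 4.64 and 3.66 TPM in chinmoST, without overlap. The log2 fold change was -0.87 ± 0.24 (edgeR adjusted p = 0.00282). At day 9 the call at -0.73 ± 0.25 (adjusted p = 0.0117) was lost in several settings. Wild-type replicate 1, one of the libraries low in long genes, was highest at 6.85 TPM, the other wild-type libraries were at 4.75 and 4.69 TPM, and the chinmoST libraries were at 4.87, 4.21 and 3.35 TPM. Without the 4 wild-type libraries low in long genes the difference was -0.39 (adjusted p = 0.056). Without replicate numbers 1, 2 or 3 it was -0.58, -0.89 and -0.73 and was not called in any of these fits.

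ImpL2 (FBgn0001257; 3L from 4224006 to 4236147, reverse strand) encodes a secreted protein that binds insulin-like peptides and lowers signaling. Its levels at day 11 were 10.7, 9.56 and 9.34 TPM in wild-type testes and 19.5, 18.0 and 18.4 TPM in chinmoST testes. The difference was 0.77 ± 0.18 on the log2 scale (adjusted p = 0.000551), the smallest rise among the 9 genes. ImpL2 was highest earlier, at 20.4, 25.2 and 24.8 TPM at day 7 and 20.7, 25.7 and 25.8 TPM at day 9. An annotated gene on the same strand, CG46460, covers 61.9% of the ImpL2 exon bases. No level of CG46460 was available for testes or ovaries. Whether any fragments were divided between the 2 genes is not given in the sources used here.

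InR (FBgn0283499; 3R from 21570248 to 21619321, reverse strand) encodes the receptor tyrosine kinase for the insulin-like peptides. At day 11 it stood at 3.39, 2.89 and 3.05 TPM in wild-type and 19.9, 12.3 and 18.1 TPM in chinmoST testes. The rise was 2.22 ± 0.26 on the log2 scale, or 4.67-fold (adjusted p = 3.05e-08). The transcripts of InR are the longest of the 10 genes, at 9997 to 10706 bases. With counts corrected for the trend with gene length of each library, the rise was 2.85-fold (1.51 ± 0.28 on the log2 scale, adjusted p = 2.49e-05). At day 1 the chinmoST libraries lay above the wild-type ones, at 3.39, 3.64 and 3.67 TPM against 2.64, 2.71 and 2.95 TPM. The difference of 0.51 ± 0.25 did not pass the edgeR test (adjusted p = 0.278). Of the 10 genes, 1 lay above in this way at day 1 and 3 lay below, and the share over all genes was not counted.

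The adaptors join the receptor to its downstream enzymes. chico (FBgn0024248; 2L from 10242512 to 10247078, reverse strand) encodes the fly insulin receptor substrate. Its day 11 levels were 8.49, 7.60 and 7.82 TPM in wild-type and 34.5, 22.4 and 29.0 TPM in chinmoST testes. The groups were far apart, and the log2 fold change was 1.65 ± 0.25 (adjusted p = 1.65e-06). The antisense gene asRNA:CR44995 covers 10.6% of the chico exon bases at a median of 1.48 TPM in testes, and whether counting used strand is not given in the sources used here. Lnk (FBgn0028717; 3R from 25888542 to 25893270, forward strand) encodes an SH2B-family adaptor that acts beside Chico at the receptor. It measured 6.52, 5.64 and 5.53 TPM in wild-type and 13.8, 11.3 and 12.1 TPM in chinmoST testes at day 11, a rise of 0.90 ± 0.22 (adjusted p = 0.000648). At day 7 its rise of 0.67 ± 0.22 was not called without replicate number 1 (0.52) or 2 (0.64), without the 4 wild-type libraries low in long genes (0.50) or with the correction for gene length (0.30). At day 1 it was the other way in values, 5.13, 4.88 and 5.45 TPM against 4.84, 4.13 and 2.38 TPM, with no call (-0.35 ± 0.22, adjusted p = 0.419).

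Pi3K92E (FBgn0015279; 3R from 20628972 to 20634732, reverse strand) encodes the catalytic subunit of phosphoinositide 3-kinase. At day 11 it stood at 10.1, 8.15 and 8.91 TPM in wild-type and 39.6, 29.6 and 37.5 TPM in chinmoST testes, a difference of 1.77 ± 0.37 (adjusted p = 0.000148). At day 3 the difference was -0.37 ± 0.36 and not called, but it was called lower without the 4 wild-type libraries low in long genes (-0.70, adjusted p = 0.0021) and without replicate number 1 (-0.70, adjusted p = 0.0071). At day 1 the chinmoST libraries were below the wild-type ones, at 6.47, 5.68 and 4.78 TPM against 8.02, 8.18 and 9.26 TPM, a difference of -0.47 ± 0.36 that was not called. Its calls at days 7 and 9 (1.06 ± 0.37 and 1.25 ± 0.37) were lost without replicate number 3 (1.37 at both days), and that at day 7 also without number 2 (1.03). In wild-type testes this gene showed the low long-gene libraries clearly, with replicate 1 at 3.31, 2.17, 3.35 and 4.48 TPM on days 3, 5, 7 and 9 and the other libraries of those days between 8.83 and 13.3 TPM.

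Akt (FBgn0010379; 3R from 16099228 to 16105670, forward strand), the central kinase of the pathway, rose from a higher level. It measured 31.5, 28.9 and 32.5 TPM in wild-type and 96.0, 71.5 and 86.8 TPM in chinmoST testes at day 11. The log2 fold change was 1.37 ± 0.15 (adjusted p = 1.32e-08), with no overlap between the genotypes. At days 7 and 9 the rises were 0.69 ± 0.15 and 0.73 ± 0.15, and both calls were lost when counts were corrected for gene length, at 0.22 and 0.23.

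The transcription factor gene foxo (FBgn0038197; 3R from 14056945 to 14087978, forward strand) had the lowest level of the 10 genes in wild-type testes, with a median of 1.33 TPM over 18 libraries. At day 11 it measured 1.66, 1.53 and 1.49 TPM in wild-type and 6.96, 5.07 and 6.36 TPM in chinmoST testes. The difference was 1.78 ± 0.23 (adjusted p = 1.28e-07). At day 1 the chinmoST libraries were below the wild-type ones, at 0.81 to 1.00 TPM against 1.12 to 1.48 TPM, a difference of -0.30 that was not called. Of the 10 genes, foxo was also the first to be called, at day 5. There the chinmoST libraries had 1.72, 2.28 and 2.29 TPM and the wild-type libraries 0.83, 1.37 and 1.29 TPM. That early call (0.72 ± 0.23, adjusted p = 0.0148) was lost at a similar size without replicate numbers 2 (0.73, adjusted p = 0.101) or 3 (0.64, adjusted p = 0.215) and in a fit of the day 5 libraries alone (0.74, adjusted p = 0.116). It was also lost, at a smaller size, with limma on log2(TPM + 1) (0.52, under the fold limit) and after correction for gene length (0.45, adjusted p = 0.077).

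Thor (FBgn0261560; 2L from 3478434 to 3479612, forward strand) encodes the 4E-BP protein, which holds back cap-dependent translation and is lifted by signaling through TOR. It had the highest level per length of the 10 genes in wild-type testes, with a median of 67.4 TPM. At day 11 its levels were 67.6, 70.3 and 74.2 TPM in wild-type and 196, 195 and 210 TPM in chinmoST. The rise was 1.33 ± 0.25 (adjusted p = 4.46e-05), and 1.58 ± 0.29 after correction for gene length, with Thor transcripts being short at 667 and 755 bases. The day 9 call (0.90 ± 0.25) was lost without replicate number 2 (0.78, adjusted p = 0.0563).

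The correction for gene length left 7 of the 9 calls at day 7, where Lnk and Akt were lost, and 7 of the 10 at day 9, where Ilp8 (-0.44), ImpL2 (0.55) and Akt were lost. At day 11 it left 8 of the 10 calls. ImpL2 and Lnk kept their direction and an adjusted p under 0.05 but fell under the fold limit, both at 0.57 on the log2 scale. Over all genes the correction changed the number of calls little. It gave 7484 in place of 7544 at day 7, 8564 in place of 8698 at day 9 and 9284 in place of 9254 at day 11. At days 5, 7, 9 and 11 the trend with gene length went with genotype. There the correction cannot separate a technical trend from a genotype difference that goes with gene length. Leaving out any replicate number kept 10 of 10 calls at day 11.

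**Figure D3:**
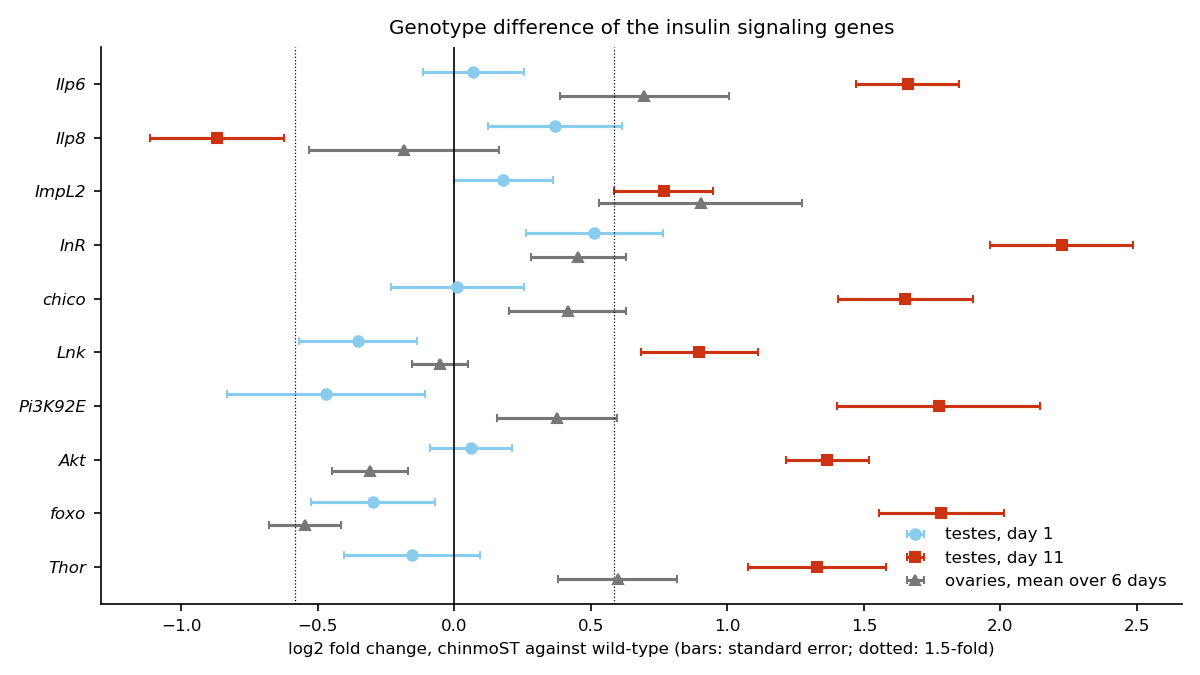
Log2 fold change of chinmoST against wild-type for each gene in testes at day 1, in testes at day 11 and in ovaries as the mean over 6 days, with standard errors as bars and dotted lines at a 1.5-fold change. In testes the day 11 values lie between 0.77 and 2.22 for 9 genes and at -0.87 for Ilp8, while the day 1 values lie between -0.47 and 0.51.

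Whether the genotype difference itself changed with age was tested as its value at day 11 less its value at day 1. The change was called for 9 of the 10 genes (53.3% of all genes), with 8 upward (28.0%) and Ilp8 downward (25.3%). Among the 10 genes it was largest for Pi3K92E at 2.24 ± 0.52 on the log2 scale and foxo at 2.08 ± 0.32, and -1.24 ± 0.35 for Ilp8. Without replicate number 3 the call of Lnk was lost (1.03, adjusted p = 0.0519, in place of 1.25). For InR it was 1.71 ± 0.36, and 1.01 ± 0.39 after correction for gene length. For ImpL2 it was 0.59 ± 0.26 and did not pass (adjusted p = 0.0529), but it was called with library size alone (0.86, adjusted p = 0.00268) and with limma on log2(TPM + 1) (0.83) and log2(TPM + 0.1) (0.88). Within wild-type testes, none of the 10 genes was called between day 11 and day 1 (0.664% of all genes, or 99, with 0.195% higher and 0.469% lower), by edgeR, DESeq2 or limma, and 0 had an unadjusted p under 0.05. Their log2 changes there were between -0.36 and 0.24. Within chinmoST testes, which share these libraries with the test of the change, 9 genes were called (65.6%), 8 higher (34.2%) and Ilp8 lower (31.5%). foxo rose 5.00-fold and Pi3K92E 4.77-fold from day 1 to day 11, Ilp8 fell by 1.09 on the log2 scale, and ImpL2 was not called at 0.23 ± 0.18 (adjusted p = 0.26). Over the mean of the 6 days, Ilp6, InR, chico and foxo were called (45.3%, 24.2% higher and 21.1% lower), and the other 6 passed the adjusted p but not the fold limit.

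Over the mean of 6 days, all 10 genes were called higher in wild-type ovaries than in wild-type testes (88.7% of 14995 genes were called, 39.6% higher in ovaries and 49.1% lower). foxo differed by 5.47 ± 0.15 on the log2 scale and Ilp8 by 4.37 ± 0.31, followed by Lnk at 2.73 ± 0.11. The other genes were between 0.94 for Ilp6 and 2.14 for ImpL2. The zero of this scale depended on the scaling, as the median of all genes lay at -0.60 with TMM, -0.91 with library size alone and -1.81 with DESeq2. Relative to that median, Ilp6 was higher by 1.55, 1.57 and 1.56 and foxo by 6.07, 6.03 and 6.05. With the DESeq2 zero, Ilp6 and Thor turned to -0.25 and -0.11, neither called, and chico was not called at 0.20. Leaving out each replicate number in turn left 6 to 9 of the 10 calls. Without wild-type ovary replicate 1 of day 1, a setting chosen after seeing the data, the median moved to -1.29. foxo was then 28.1-fold higher in place of 44.3-fold, Lnk 4.25-fold in place of 6.65-fold, Ilp6 was not called at 0.41 (adjusted p = 0.158), and Thor fell under the fold limit at 0.56.

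**Figure D4:**
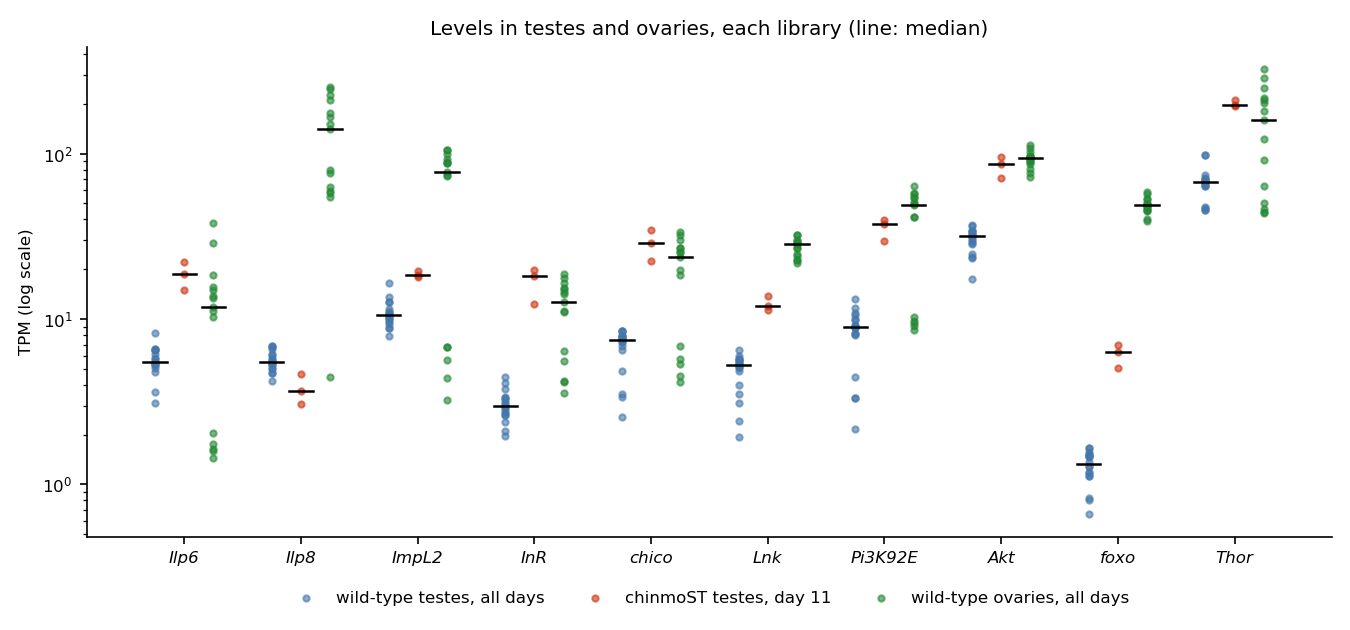
Level of each gene (TPM, logarithmic axis) in the 18 wild-type testis libraries, the 3 chinmoST testis libraries of day 11 and the 15 wild-type ovary libraries, with a point for each library and a black line at each median. For foxo and Lnk the day 11 chinmoST testes lie between the other groups without overlap, and for Ilp8 they lie at the low end of the wild-type testes or below them, while the ovaries have a median of 141 TPM.

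Set beside the ovary, the day 11 levels in chinmoST testes differed from gene to gene. The mean foxo level of 6.13 TPM was 12.6% of the wild-type ovary median of 48.7 TPM, and the mean Ilp8 level of 3.79 TPM was 2.69% of the ovary median of 141 TPM. ImpL2 reached 24.02%, Lnk 43.6% and Pi3K92E 72.4%. Akt at 84.8 TPM was 90.3% of the ovary median, and Thor, InR, chico and Ilp6 were at 126%, 132%, 121% and 158%. These medians include the 5 wild-type ovary libraries with r below -0.3. In the other 10, the medians of Thor, InR, chico and Ilp6 were 207, 14.9, 26.2 and 14.4 TPM. The day 11 chinmoST testis means were 201, 16.7, 28.6 and 18.6 TPM. Thor was thus below that ovary median, while InR, chico and Ilp6 stayed above theirs. The wild-type ovary libraries spread widely for these 4 genes. They did so too for ImpL2 at 3.23 to 106 TPM, Ilp8 at 4.49 to 252 TPM and Pi3K92E at 8.62 to 63.4 TPM. Those of foxo, Lnk and Akt spread less. In 5 wild-type ovary libraries ImpL2, at 3.23 to 6.73 TPM, lay below the day 11 chinmoST testes at 18.0 to 19.5 TPM. These shares are ratios of levels per length and carry no test.

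**Figure D5:**
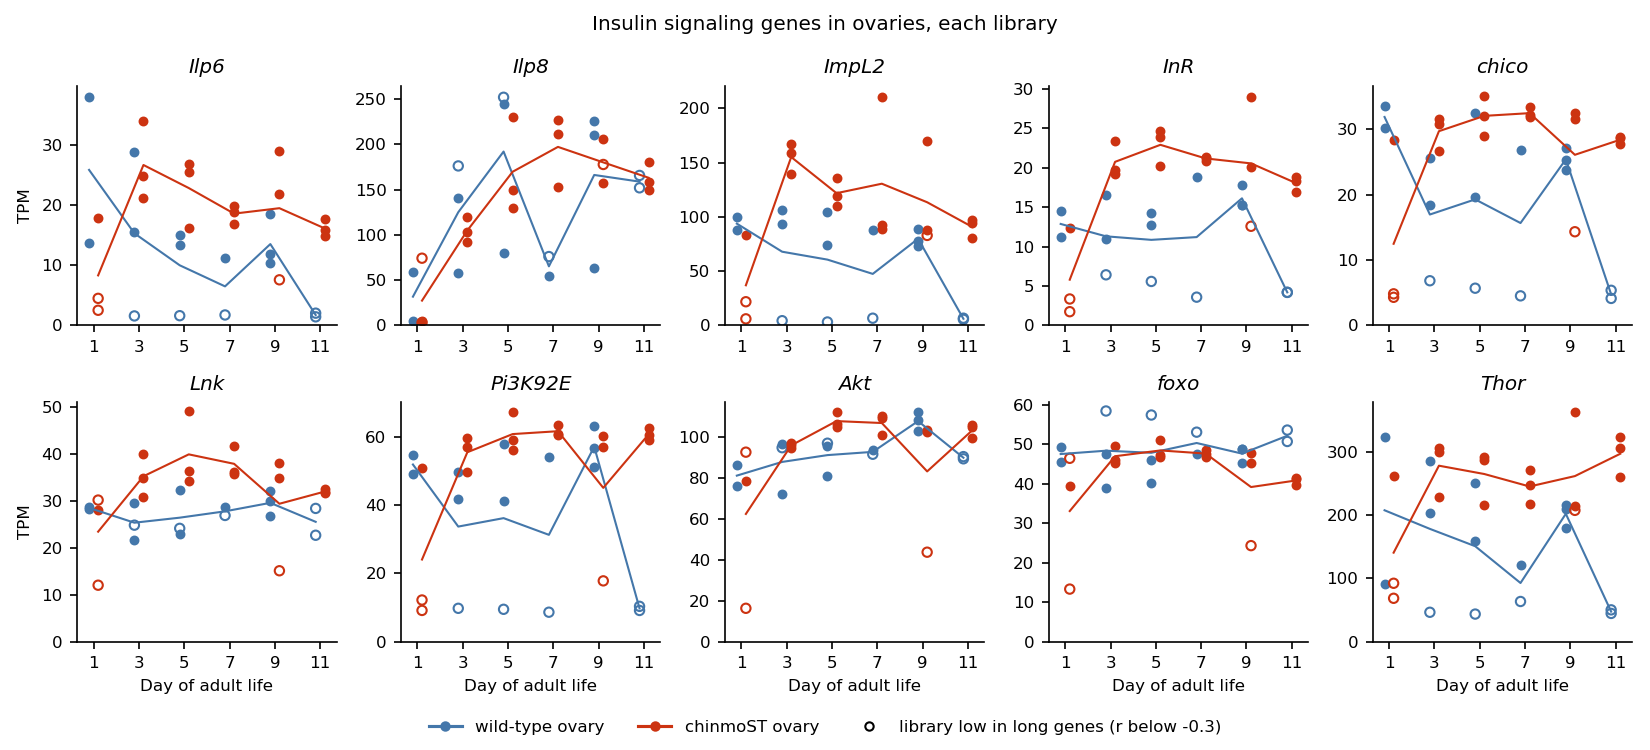
Level of each gene in ovaries (TPM, linear axis from 0) against day of adult life, with a point for each of the 33 libraries, lines through the group means and open points for the 8 libraries with r below -0.3 for gene length. In wild-type ovaries the open points lie far below the others for Ilp6, ImpL2, chico, Pi3K92E and Thor and among or above them for Ilp8, Lnk, Akt and foxo.

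Among wild-type ovaries, 5 libraries stood apart. In the 5 libraries with r below -0.3 (replicate 3 of days 3 and 5, replicate 2 of day 7 and both of day 11), ImpL2 was at 3.23 to 6.73 TPM, against 73.0 to 106 TPM in the other 10. Likewise Ilp6 was at 1.44 to 2.05 against 10.3 to 38.0 TPM, Pi3K92E at 8.62 to 10.3 against 41.2 to 63.4 TPM and chico at 4.14 to 6.84 against 18.5 to 33.6 TPM. InR and Thor were also lower there without overlap, at 3.59 to 6.42 against 11.0 to 18.8 TPM and 43.5 to 63.5 against 91.6 to 324 TPM. By contrast, Lnk at 22.7 to 28.4 against 21.7 to 32.3 TPM and Akt at 89.4 to 97.0 against 72.2 to 112 TPM overlapped, and foxo at 50.7 to 58.4 lay above the others at 39.0 to 49.4 TPM. In the same 5 libraries the CySC list summed to 243 to 284 CPM against 581 to 1018 CPM, the 2 hemocyte markers to 0.938 to 1.75 against 5.11 to 275 CPM and the 2 muscle markers to 12.4 to 20.3 against 28.0 to 210 CPM. The 5 germline markers there summed to 2427 to 3315 CPM, against 1043 to 1368 CPM in the other 10. The part of these differences in the gene levels was not tested.

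Ilp8 was low in 3 of the 5 ovary libraries of day 1. At day 1 it was at 4.49 and 59.2 TPM in wild-type and 3.13, 74.3 and 4.99 TPM in chinmoST ovaries. At days 3 to 11 it was between 54.6 and 252 TPM in wild-type and between 92.6 and 230 TPM in chinmoST. Thus 3 of the 5 day 1 libraries were lower than every later one. The day 1 chinmoST libraries at 3.13 and 74.3 TPM had r below -0.3 for gene length. Wild-type replicate 1 of day 1 was the library that held late spermatid markers. The part of these library traits in the Ilp8 levels was not tested.

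The labels list chinmoST ovaries, whereas the description of the dissections in the same labels names ovaries for wild-type flies and testes alone for chinmoST, so the ovary comparison between genotypes rests on the sample labels. By these, 1 of the 10 genes was called in ovaries over the mean of 6 days (28.2% of 11478 genes, 14.3% higher and 13.8% lower), Thor at 0.60 ± 0.22 (adjusted p = 0.0294). The 18 chinmoST libraries had a median of 261 TPM of Thor, between 68.5 and 363, and the 15 wild-type libraries 159 TPM, between 43.5 and 324. Without the 8 libraries with r below -0.3, which left days 1 to 9 since both wild-type libraries of day 11 were among them, a setting chosen after seeing the data, Thor was at 0.33 ± 0.21 (edgeR adjusted p = 0.292) and 0 of the 10 genes were called. InR at 0.32 and Lnk at 0.23 then passed the adjusted p but not the fold limit. Without wild-type replicate 1 of day 1 alone, Thor was also lost (0.49, adjusted p = 0.0677). DESeq2 called 3 genes, Ilp6, ImpL2 and Thor. The values of foxo were lower in chinmoST ovaries by 0.55 ± 0.13 on the log2 scale (adjusted p = 0.00255), short of the fold limit, and by 0.11 ± 0.04 without the 8 libraries. Among those 8, chinmoST replicate 1 of day 1 and replicate 3 of day 9 had foxo at 13.3 and 24.3 TPM and Akt at 16.3 and 43.7 TPM, below all other ovary libraries.

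The genotype difference in testes exceeded that in ovaries for foxo by 1.43 ± 0.16, for Akt by 0.69 ± 0.15 and for InR by 0.64 ± 0.19 on the log2 scale (adjusted p = 1.96e-10, 0.000148 and 0.00629). These were the 3 of the 10 genes called for this difference (30.9% of 15293 genes, 17.8% upward and 13.1% downward). The other 7 had differences between -0.50 and 0.35. Without all libraries with r below -0.3, over days 1 to 9, foxo was at 0.80 ± 0.11 and InR at 0.59 ± 0.15 and both were called, while Akt was at 0.21 ± 0.07 and under the fold limit. DESeq2 called foxo alone, with InR and Akt at 0.50 and 0.53. Leaving out replicate number 1 or 2 lost the call of InR (0.52 and 0.66), and leaving out number 3 that of Akt (0.56). The InR call was also lost with limma on log2(TPM + 1) (0.46, adjusted p = 0.0708). That of Akt was lost with the correction for gene length (0.51).

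The other genes of the pathway were taken from a list of 32, of which 30 were tested in testes. At day 11, 13 were higher and 3 lower, with a median log2 fold change of 0.56, beside 32.1% higher, 29.9% lower and a median of 0.09 over all genes. Of the 11 genes around TOR, the growth kinase that Akt activates, 7 were higher (Tsc1, gig, mTor, raptor, Lst8, S6k and PRAS40) and 0 lower. S6k, the kinase that promotes translation downstream of TOR, was at 35.9 to 67.7 TPM in chinmoST testes at days 9 and 11 and 8.86 to 13.5 TPM in wild-type (2.50 ± 0.22 at day 11). PRAS40, an Akt substrate, was at 34.3 to 65.1 against 5.56 to 6.78 TPM (2.95 ± 0.30). Of the 7 genes around phosphoinositide 3-kinase, 3 were higher, among them the regulatory subunit Pi3K21B (0.97 ± 0.14), and Pdk1, the kinase that phosphorylates Akt, was lower by 0.75 ± 0.21. All 4 Foxo targets (tobi, Lip4, Sesn and bmm) were called higher at days 7 and 9, and Lip4 and Sesn were so at day 11. Of the 6 other ligands, Ilp1 and Ilp5 were too low to be tested, Ilp7 was higher by 1.11 ± 0.30 and Ilp3 was lower by 1.36 ± 0.34, both from levels below 2 TPM. The secreted binding protein gene conv was the last of the 3 lower genes (-0.60 ± 0.17). These genes were named after their values were seen. In ovaries, 27 of the list were tested, of which conv, drl and melt were called higher between genotypes, beside 14.3% of all genes, and 0 lower.

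Across the 12 testis group means, the correlation of log2(CPM + 1) was positive for every one of the 36 pairs of genes without Ilp8, with r between 0.64 and 0.98, and negative for the 9 pairs with Ilp8, with r between -0.98 and -0.67. These values describe groups that share the same libraries and the same rise over days. Over all 24 group means the 3 genes most like each of the 10 had r between 0.95 and 1.00. Those nearest to InR were ssx, Pka-C1 and CG17803, those nearest to foxo were Mtpalpha, CG34348 and CG11050, and those nearest to Lnk were trbl, CG14803 and Nbr. For Ilp8 they were 3 near-identical copies of the histone gene His1, whose reads cannot be told apart.

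The length deposited for each gene is an average in which each transcript counts by its share of the estimated abundance. For Ilp6, whose 4 annotated transcripts span 634 to 1908 bases, it was 1695 ± 67.6 bases (SD, n = 18 libraries) in wild-type testes, 1831 ± 27.7 in chinmoST testes (n = 18), 1865 ± 22.4 in wild-type ovaries (n = 15) and 1873 ± 16.8 in chinmoST ovaries (n = 18). For Akt it was 3525 ± 67.3 and 3688 ± 116 bases in wild-type and chinmoST testes and 3723 ± 72.2 and 3753 ± 38.5 bases in the ovaries. For Ilp8 and Thor it was 867 and 755 bases in every library. Of the 10 genes, the lowest count in any library was 82 fragments, for Ilp8. The lengths were not compared by a test.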

How the data were processed

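RNA captured with oligo(dT) from whole testes and ovaries was sequenced as paired-end reads. Per the labels, the authors trimmed reads with Trim Galore 0.6.4, checked them with FastQC 0.11.9 and quantified them with RSEM and Bowtie2 on dm6, versions of the latter being not given in the sources used here. The deposited tables hold an expected count, a TPM value and a length for each gene and library. RSEM divides reads shared between transcripts by an estimate, so overlapping genes are uncertain.

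Expected counts were rounded to whole numbers, filtered with filterByExpr, scaled by TMM and tested with the quasi-likelihood test of edgeR 4.0.16 in R 4.3.3, with Benjamini-Hochberg adjustment over all genes tested. Testes were fitted together (12 groups), ovaries together, and both for differences between tissues. Genes were called at an adjusted p under 0.05 if they also differed by 1.5-fold or more. Alternatives used DESeq2 1.42.0, limma 3.58.1 on log2(TPM + 1) or log2(TPM + 0.1), library size alone, no filter, a replicate block, a correction for the gene-length trend within libraries, and left-out libraries. The test was checked on simulated testis counts that held no trend with gene length and far fewer changed genes than day 11. That check therefore does not cover data with these traits. Replicate numbers were not used as pairs in the main fits. Between genotypes, libraries of the same number and day correlated at r between -0.29 and 0.32 in testes and between -0.38 and 0.42 in ovaries.

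The 10 genes and all gene lists were chosen with earlier results of these data known. Named genes were all 10 of these, the 3 genes most like each of them, and pathway and marker genes from the lists. Counting errors alone are covered by the stated limit of 3 fragments.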

Additional observations from a re-analysis of the deposited data

Results flagged for a closer look

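The genotype difference in testes changed between day 1 and day 11 for 9 of the 10 genes by a test of the change itself (edgeR adjusted p under 0.05 and at least 1.5-fold). On the log2 scale the change was 1.59 for Ilp6, 1.71 for InR, 1.64 for chico, 1.25 for Lnk and 2.24 for Pi3K92E. It was 1.30 for Akt, 2.08 for foxo and 1.49 for Thor, and -1.24 for Ilp8, the only one of the 9 to turn downward.

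The genotype difference was larger in testes than in ovaries, by the same kind of test, for InR at 0.64, Akt at 0.69 and foxo at 1.43. Without all testis and ovary libraries with r below -0.3, which also left out day 11, foxo was at 0.80, InR at 0.59 and Akt at 0.21, the last no longer called. The part of any single library in these values was not tested.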

How the results depend on the processing

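Over all single-gene results and settings, 1552 values kept their side of the threshold, 72 gained a call, 54 lost one and 2 reversed. The reversals were Ilp6 at -0.25 and Thor at -0.11 in ovaries against testes with DESeq2. Of the 10 genes, the number called at day 3 was 0, and 1 without the libraries low in long genes and 2 with DESeq2. At day 5 it was 1, and 3 by adjusted p alone, 2 and 4 with limma on log2(TPM + 1) and log2(TPM + 0.1), 4 with library size alone, 2 without a filter, 3 with DESeq2, 0 with the length correction and 0 with the libraries of that day alone. For the mean over days it was 4, and 10 by adjusted p alone and 7 with either limma fit or library size. In ovaries it was 1, and 3 by adjusted p alone, 4 and 5 with limma, 4 with library size, 3 with the length correction, 3 with DESeq2, and 0 without wild-type replicate 1 of day 1 or the libraries with r below -0.3 (both chosen after seeing the data). For the tissue difference it was 3, and 1 with DESeq2, 2 with limma on log2(TPM + 1), 2 with the length correction and 2 without the libraries with r below -0.3.

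With one replicate number left out at a time, 0 to 2 genes were called at day 3, 0 to 3 at day 5, 7 to 8 at day 7, 8 to 9 at day 9, 10 at day 11, 4 to 6 for the mean, 8 to 9 for the change, 0 to 2 in ovaries, 2 to 3 for the tissue difference and 6 to 9 for ovaries against testes. Over all genes it gave 224 to 1779 at day 1, 1005 to 3647 at day 3, 1624 to 5470 at day 5, 9 to 70 for wild-type ageing, 1449 to 4110 in ovaries and 3144 to 5798 for the tissue difference.

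Over all genes, 835 calls at day 1 became 1404 without the libraries low in long genes. At day 3, 2854 became 1864 with limma on log2(TPM + 1) and 1163 with that day alone, and at day 5, 4148 became 806 with that day alone. For the mean, 6757 became 11205 by adjusted p alone. For wild-type ageing, 99 became 155 with limma on log2(TPM + 0.1), 212 without the libraries low in long genes and 334 with DESeq2. In ovaries, 3232 became 4905 by adjusted p alone, 1354 with limma on log2(TPM + 1) and 1383 without the libraries with r below -0.3. With the length correction, 4148 calls at day 5 became 3899, and 3232 in ovaries became 2982. Where no cause is given by the setting itself, the cause was not tested.

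Libraries of the same number correlated at a mean r of 0.07 in testes and -0.02 in ovaries. With a replicate block, the change of ImpL2 was called (0.59, adjusted p = 0.034), which made 10 of 10, 3 genes were called at day 5 and 2 in ovaries, and 9403 of all genes at day 11 in place of 9254. With library size alone, the share of higher calls moved from 39.6% to 28.6% at day 1, 45.6% to 58.6% at day 5, 55.0% to 66.2% at day 7, 52.5% to 64.7% for the change, 52.0% to 64.4% for chinmoST ageing, 29.3% to 40.2% for wild-type ageing and 50.9% to 69.5% in ovaries. The median of all genes at day 11 moved from 0.09 to 0.30.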
